A study of Mus musculus with 60 samples.

Results

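The genes of the cytoplasmic ribosomal proteins were followed in nascent RNA of E14 mouse embryonic stem cells after knockdown of Esrrb, a nuclear receptor that helps maintain naive pluripotency. A gene was a member when its symbol was Rpl or Rps with a number and an optional letter or l, or was Rplp0, Rplp1, Rplp2 or Rpsa, and symbols with -ps (most of them pseudogenes) and the Rps6k kinases were left out. There were 83 members among 24260 gene symbols in the files, 51 of the large and 32 of the small subunit. Cells had been transfected with siRNA against Esrrb (siEsrrb, 2 libraries) or with a control siRNA (siCtrl, 2 libraries), both in medium with serum and LIF and both harvested 72 h after transfection. RNA came from the chromatin pellet, so that transcripts still attached to their templates were enriched, and went into stranded libraries after removal of ribosomal RNA. E14 is 1 cell line, and the series text leaves nascent RNA-seq out of its statement on biological replicates. The p-values below therefore measure the spread between these libraries, which may be technical.

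The eukaryotic ribosome joins a large subunit, which forms peptide bonds, to a small subunit, which reads the mRNA. Each protein is used in near equal amounts, and its gene is typically short, strongly transcribed in growing cells and led by a start site inside a run of pyrimidines, the TOP tract, through which mTOR controls translation of the mRNA. Many of these genes also carry small nucleolar RNAs in their introns, which guide the chemical modification of ribosomal RNA.

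RefSeq start sites (build GRCm38.p6) were listed for 62 of the 83 members, 74 starts in all. The word CTTTC, a piece of a pyrimidine tract, was searched on the transcribed strand from 30 bases before to 30 bases after the start. It stood at 23 of the 74 starts (31.1%), against 7.93% of the 32851 listed starts of all genes. CCGGAAG, the core of an ETS factor site, was searched on both strands over 250 bases before and 50 bases after the start, and was found at 26 member starts (35.1%), against 8.86% of all starts. AAGATGGC, a YY1 word, was present on either strand at 7 member starts (9.46%), against 2.75% of all. Those 7 starts belonged to 5 of the 62 members, since some members have several listed starts. TATAAA within the 50 bases before the start, on the transcribed strand, was at 0 member starts, against 2.63% of all, and the Esrrb-type word TCAAGGTCA was on neither strand at any member start, against 0.423% of all. The last pair of counts says only that these letters are not in these windows. Searches allowed no mismatch. No word contains another, and they can overlap by at most 3 bases, as where CCGGAAG runs into AAGATGGC.

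Windows of 100 bases, 70 before and 30 from the start, are printed for the 2 members with the highest nascent level that have a listed start, for 4 of the members with the smallest p for a higher level in siEsrrb cells, and for Rpl9, the tested member whose siEsrrb values both lay below the siCtrl values. They run 5′ to 3′ along the transcribed strand, and capitals mark CTTTC, and CCGGAAG on either strand. On GRCm38.p6 they are Rpl13a at chr7:45128716-45128815 (minus strand), Rpl4 at chr9:64173317-64173416 (plus strand), Rps27 at chr3:90213619-90213718 (minus strand), Rps27l at chr9:66946016-66946115 (plus strand), Rps13 at chr7:116334161-116334260 (minus strand), Rps3 at chr7:99483680-99483779 (minus strand) and Rpl9 at chr5:65391402-65391501 (minus strand).
Rpl13a: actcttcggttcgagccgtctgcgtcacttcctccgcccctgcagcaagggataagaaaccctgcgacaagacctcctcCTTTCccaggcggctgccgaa
Rpl4: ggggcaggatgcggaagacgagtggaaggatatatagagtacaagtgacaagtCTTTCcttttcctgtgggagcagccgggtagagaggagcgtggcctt
Rps27: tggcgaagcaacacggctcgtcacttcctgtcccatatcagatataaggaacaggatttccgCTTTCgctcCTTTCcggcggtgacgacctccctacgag
Rps27l: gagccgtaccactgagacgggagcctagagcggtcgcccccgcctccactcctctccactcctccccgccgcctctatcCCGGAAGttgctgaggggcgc
Rps13: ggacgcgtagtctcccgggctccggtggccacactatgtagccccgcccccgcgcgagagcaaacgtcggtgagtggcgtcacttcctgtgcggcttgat
Rps3: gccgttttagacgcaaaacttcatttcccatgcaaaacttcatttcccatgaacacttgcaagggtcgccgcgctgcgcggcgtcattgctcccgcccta
Rpl9: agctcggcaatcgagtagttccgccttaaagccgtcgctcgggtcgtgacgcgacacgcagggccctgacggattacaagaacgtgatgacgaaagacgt
Rpl13a, Rpl4 and Rps27 hold CTTTC near the start, Rps27l holds the ETS word just after it, and the windows of Rps13, Rps3 and Rpl9 hold neither. Among members tested for a difference, the 21 with CTTTC near a listed start had a median log2 fold change (siEsrrb over siCtrl) of 0.17, and the 39 without it also had 0.17. The medians were likewise 0.17 for the 24 members with the ETS word and 0.17 for the 36 without it.

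The libraries held 22363943 and 61857158 reads behind the deposited values in siEsrrb cells, against 24764879 and 68002338 in siCtrl cells, so replicate 1 of each group was the shallower. Esrrb itself had 1.50 and 2.08 scaled RPKM (RPKM, reads divided by locus length and by library depth, times a library factor) in siEsrrb cells, against 3.39 and 3.10 in siCtrl cells. This left 44.2% of the siCtrl level in replicate 1 and 67.0% in replicate 2. All 10 embryonic stem cell markers passed the minimum level, with summed levels of 95.1 and 84.4 scaled RPKM in siEsrrb cells, against 109 and 102 in siCtrl cells. Their median log2 fold change was −0.54, and it was above 0 for 3 of the 10. For 6 of the 10, Esrrb itself among them, both siEsrrb libraries lay below both siCtrl libraries (22% of all genes). Klf4 was among these, with 1.23 and 1.68 against 5.65 and 4.06. For 1 of the 10, Pou5f1, both lay above (21.8% of all genes), with 20.4 and 15.9 against 12.1 and 14.7. Of the markers of other tissues, 0 of 8 fibroblast, 0 of 5 endoderm and 0 of 4 mesoderm markers passed. All 4 for neuroectoderm passed, with summed levels of 8.00 and 7.84 in siEsrrb cells, against 5.84 and 5.05 in siCtrl cells. Most of that sum was Nes, with 5.92 and 5.31 against 3.02 and 2.66, while Ncam1 was lower in siEsrrb cells, with 0.271 and 0.417 against 0.943 and 0.760, and log2 fold changes were above 0 for 2 of the 4. For trophectoderm 2 of 4 passed, the keratin genes Krt8 and Krt18, with summed levels of 15.4 and 9.37 in siEsrrb cells, against 9.86 and 6.66 in siCtrl cells. The groups overlapped for both genes. The other trophectoderm markers, Cdx2 and Elf5, had means of only 0.0133 and 0.00158 scaled RPKM over the libraries. The part of all these markers in the values below was not tested.

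Nascent RNA of the ribosomal protein genes was slightly and broadly higher in siEsrrb cells, and no single member passed the test. Summed over the 81 members above the minimum level (a mean of 0.5 RPKM), it came to 1320 and 1161 scaled RPKM in siEsrrb cells, against 1100 and 1089 in siCtrl cells. Both siEsrrb sums lay above both siCtrl sums. On this scale siEsrrb replicate 1 stood above the other 3 libraries, which depended on the library factors. As a share of all reads, with no library factor, the members took 0.403% and 0.409% in siEsrrb cells, against 0.353% and 0.394% in siCtrl cells. There siCtrl replicate 1 was the lowest and the siEsrrb libraries were nearly level. The median member had a log2 fold change of 0.17, against −0.001 over all 9758 genes tested, and the middle 50% of members ran from 0.13 to 0.24. The fold change was above 0 for 78 of the 81 members, against 49.6% of all genes. In RNA of whole cultures, more cells that transcribe these genes and more RNA per cell cannot be told apart.

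At an adjusted p under 0.05 (limma on log2(scaled RPKM + 0.5), Benjamini-Hochberg over all genes, two-sided) 0 members were called, and 0 of all genes (0%). At an unadjusted limma p under 0.05, 2 members were higher, Rps27 and Rps27l, where 5.92% of all genes were, and 0 members were lower, where 5.33% of all genes were. Voom on reads recovered from the RPKM, without a replicate block, gave 0 members past the adjusted threshold and 2 at an unadjusted p under 0.05. With a replicate block added to voom, 24 members passed the adjusted threshold, all higher (12.8% of all genes), and 0 were lower (14.7% of all genes), although no label pairs the libraries. Both siEsrrb libraries lay above both siCtrl libraries for 52 members (21.8% of all genes), both lay below for 1 member (22% of all genes), and the groups overlapped for the rest. No member had groups apart by at least 1.5-fold, where 0.666% of all genes were higher and 0.615% lower by that measure.

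**Figure D1:**
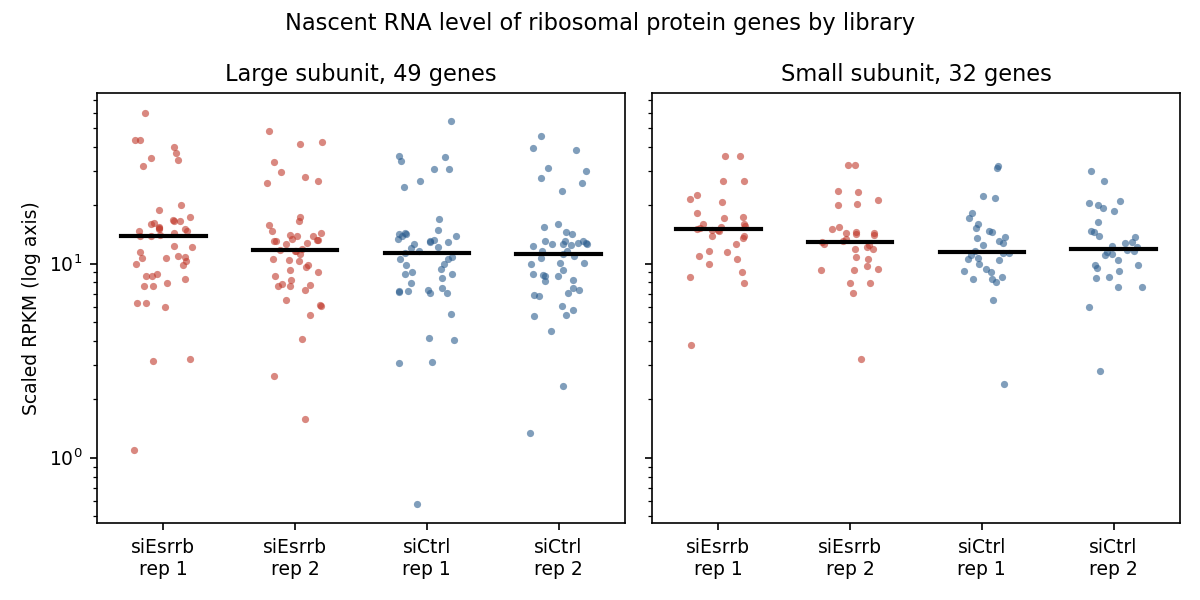
Nascent level of each tested ribosomal protein gene (scaled RPKM, log axis) in siEsrrb replicates 1 and 2 and siCtrl replicates 1 and 2, with large-subunit genes (49) on the left and small-subunit genes (32) on the right. Each point is a gene and the black bar is the median; the medians are highest in siEsrrb replicate 1 for both subunits.

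The size of the shift depended on the replicate. Paired by number, the median member ratio was 0.23 (log2) in replicate 1 and 0.09 in replicate 2, and 72 members were above 0 in both, where 37.8% of all genes were. A single member, Rpl9, was below 0 in both, and 8 had opposite signs. For 73 of the 81 members the replicate 1 ratio was the larger one, where 47.8% of all genes showed that order. On scaled values the median member was at −0.16 (log2) in replicate 2 relative to replicate 1 within siEsrrb cells, and at −0.02 within siCtrl cells. Which group held more of the difference depended on the library factors. As a share of all reads members took 0.403% and 0.409% in siEsrrb cells, against 0.353% and 0.394% in siCtrl cells, with siCtrl replicate 1 lowest. Also on scaled values, without siEsrrb replicate 1 the median log2 fold change of the members was 0.08 and 69 of 81 were above 0. Without siEsrrb replicate 2 it was 0.25 with 78 above 0. Across the 81 members the replicate ratios had a Pearson r of 0.24 and a Spearman rho of 0.11, against 0.53 and 0.68 across all 9758 genes. These are descriptions across genes, which share libraries and scaling and are not independent replicates.

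**Figure D2:**
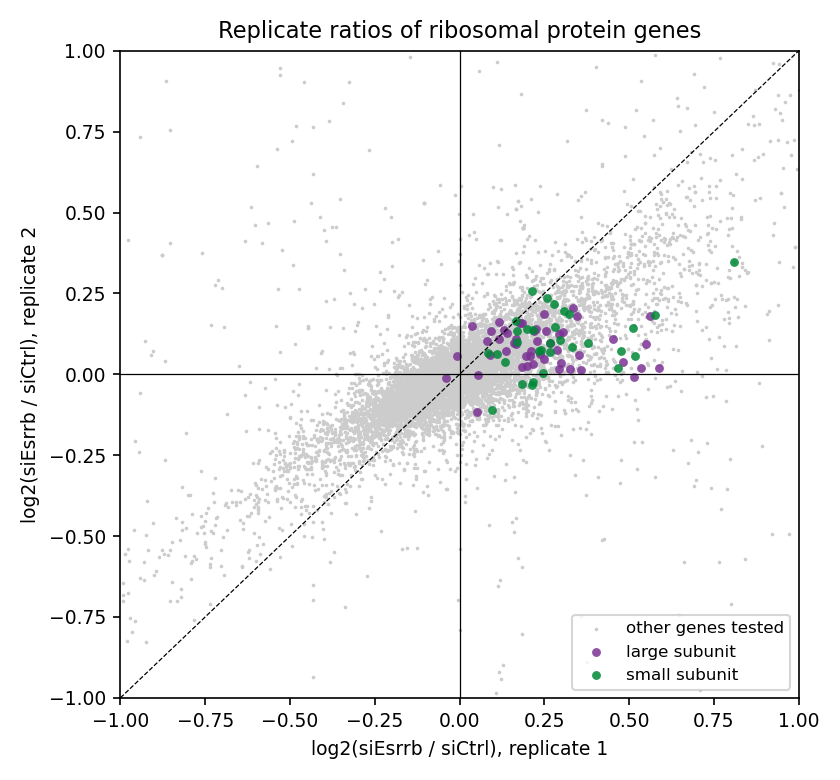
Log2 ratio of siEsrrb to siCtrl in replicate 2 (vertical) against replicate 1 (horizontal) for large-subunit genes (purple), small-subunit genes (green) and other genes tested (grey; 9339 within the axes, 338 outside). Most members lie to the right of 0 and below the dashed line of equal ratios, and Rps27 is the green point farthest to the upper right.

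The shift was of similar size for both subunits. Large-subunit genes had median levels of 13.9 and 11.8 scaled RPKM in siEsrrb cells, against 11.4 and 11.2 in siCtrl cells. Small-subunit genes had medians of 15.0 and 13.0 in siEsrrb cells, against 11.5 and 11.9 in siCtrl cells. For either subunit both siEsrrb medians lay above both siCtrl medians, for the large subunit by a narrow margin in replicate 2. The median log2 fold change was 0.16 for 49 large-subunit genes and 0.18 for 32 small-subunit genes, a difference of −0.02, which was −0.03 in replicate 1 and −0.01 in replicate 2. Leaving out the 23 members that hold a small RNA gene turned that difference to 0.01, so no order of the subunits is read from it. Per library, the mean log2 level of the large-subunit genes minus that of the small-subunit genes was −0.17 and −0.15 in siEsrrb cells, against −0.12 and −0.13 in siCtrl cells. The ratio of the summed levels, large over small, was 1.547 and 1.523 in siEsrrb cells, against 1.587 and 1.553 in siCtrl cells, so by either measure the groups did not overlap. The siEsrrb libraries were above the siCtrl libraries for 29 of 49 large-subunit and 23 of 32 small-subunit genes, and for 21.8% of all genes. These differences between subunits were not tested; an exact permutation test of 2 libraries against 2 cannot go below p = 0.3333.

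Rps27 encodes a zinc-binding protein of the small subunit and had the smallest p of all members. Its level was 15.1 and 12.7 scaled RPKM in siEsrrb cells, against 8.37 and 9.84 in siCtrl cells. The groups did not overlap, and the fold of the means was 1.52, with means of 13.9 ± 1.68 in siEsrrb cells and 9.11 ± 1.04 in siCtrl cells (SD, n = 2 each). The log2 fold change was 0.58 (SE 0.15) with a limma p of 0.0177 and an adjusted p of 0.349. The reads behind it numbered 304 and 812 in siEsrrb cells, against 194 and 711 in siCtrl cells. The row of the retrocopy Rps27rt held the same reads in all 4 libraries over a locus of 981 bases, against 982 for Rps27, so the locus entered the files under both names.

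Rps27l, a close paralog of Rps27 that p53 induces, was among the 4 least transcribed members that were tested. It had 3.82 and 3.23 scaled RPKM in siEsrrb cells, against 2.40 and 2.79 in siCtrl cells, with no overlap. Its log2 fold change was 0.38 (SE 0.12), with a limma p of 0.0327 and an adjusted p of 0.409. In replicate 1 the log2 ratio was 0.58 and in replicate 2 it was 0.18.

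The other members with the smallest p for a higher level all had an adjusted p between 0.496 and 0.533 by limma. Rps13, an early-joining protein of the small subunit, had 7.95 and 7.05 scaled RPKM in siEsrrb cells, against 6.47 and 5.99 in siCtrl cells. Rps3, which lies at the entry of the mRNA channel and also acts in DNA repair, had 21.4 and 21.4 in siEsrrb cells, against 17.2 and 18.6 in siCtrl cells. Rpl35a, a large-subunit protein whose loss of a copy causes Diamond-Blackfan anaemia in humans, had 11.4 and 9.89 in siEsrrb cells, against 8.87 and 8.66 in siCtrl cells. In all 3 genes the groups did not overlap, and the log2 fold changes were 0.25 for Rps13, 0.25 for Rps3 and 0.26 for Rpl35a. Rps3 holds Snord15a and Snord15b, whose rows had 22.2% and 30.4% as many reads as Rps3 in siEsrrb cells, against 22.2% and 30.3% in siCtrl cells, and Rpl35a overlaps Iqcg. Rps4l, annotated as a transcribed pseudogene inside Tmtc1, had 15.3 and 13.0 scaled RPKM in siEsrrb cells, against 10.6 and 11.7 in siCtrl cells.

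Only 3 tested members had a log2 fold change below 0, and each was close to it. Rpl9, which sits near the base of the large subunit's P stalk, had 14.0 and 14.1 scaled RPKM in siEsrrb cells, against 14.4 and 14.2 in siCtrl cells. Its groups did not overlap, but the log2 fold change was −0.03 (SE 0.11) with an adjusted limma p of 0.952. Rps24, a Diamond-Blackfan anaemia gene in humans, had 15.5 and 15.1 in siEsrrb cells, against 14.5 and 16.3 in siCtrl cells, where the siEsrrb values lay between the siCtrl values. Rpl36a, an X-linked gene whose protein lines the exit site for tRNA, had 3.23 and 4.11 in siEsrrb cells, against 3.10 and 4.50 in siCtrl cells, again inside the siCtrl range.

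The 4 members with the highest level were of the large subunit, followed by Rpsa (a mean of 32.5 scaled RPKM) and Rps12 (31.5) of the small subunit. Rpl13a, which in human cells also takes part in silencing inflammatory mRNAs, had 59.6 and 47.9 scaled RPKM in siEsrrb cells, against 54.2 and 45.5 in siCtrl cells. Replicate 1 exceeded replicate 2 in both groups, so the groups overlapped. Rpl13a carries 4 snoRNA genes and 1 miRNA gene whose rows together had 41.4% and 39.5% as many reads in siEsrrb cells, against 40.4% and 38.2% in siCtrl cells. Rpl4, which lines the peptide exit tunnel, had 43.4 and 42.1 scaled RPKM in siEsrrb cells, against 35.3 and 38.6 in siCtrl cells, with no overlap. Rpl8, which reaches towards the peptidyl transferase centre, had 43.2 and 41.1 in siEsrrb cells, against 33.8 and 39.5 in siCtrl cells, also with no overlap. Rpl3, another protein close to that centre, had 40.1 and 33.3 in siEsrrb cells, against 35.8 and 31.2 in siCtrl cells, which overlapped.

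**Figure D3:**
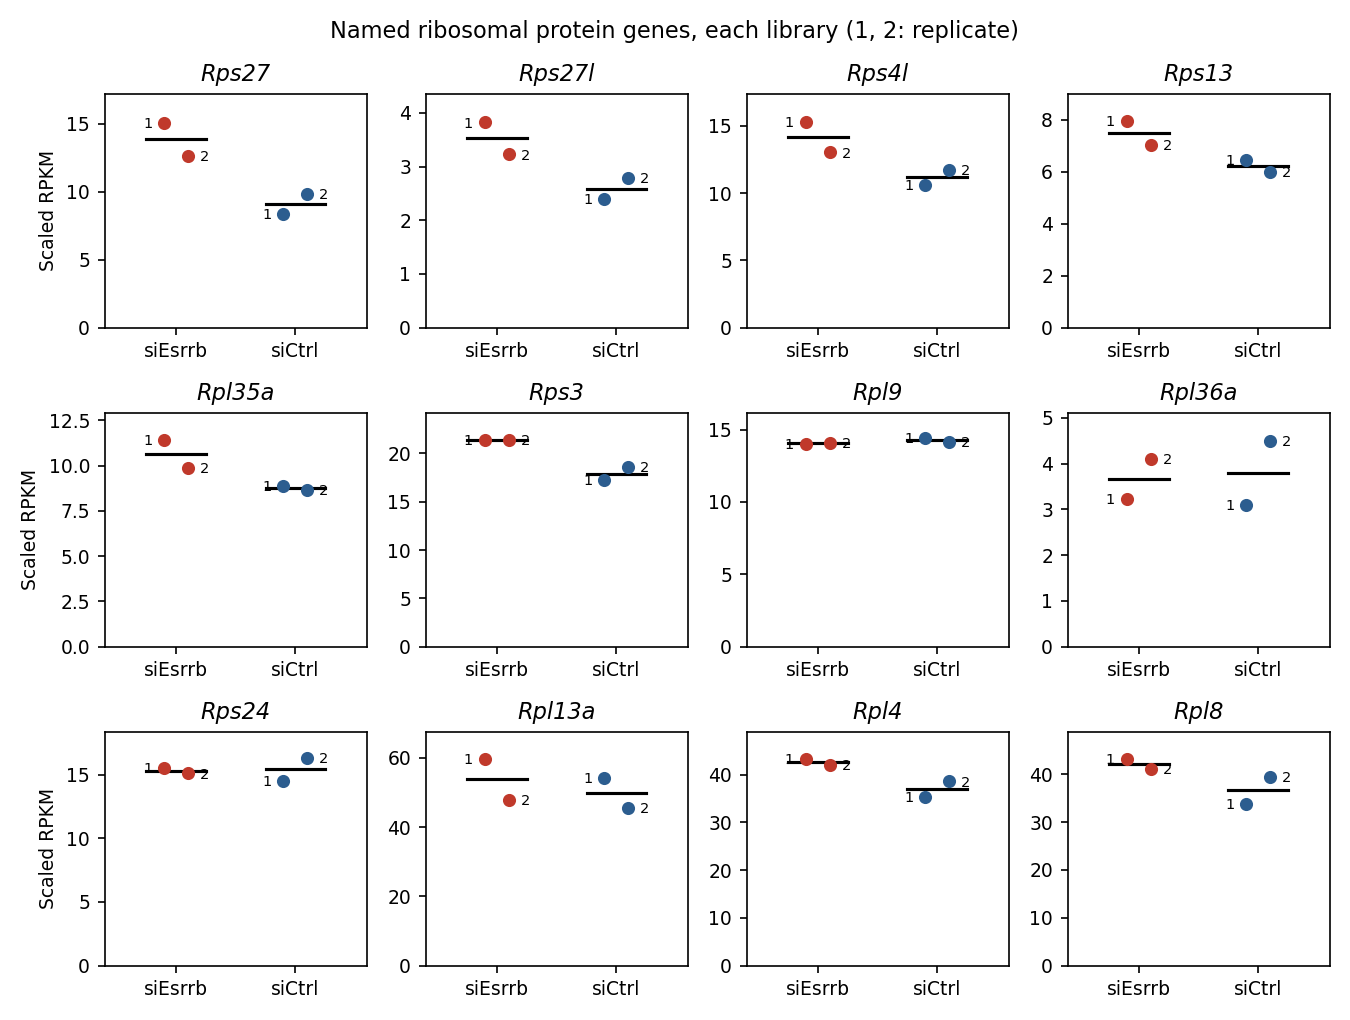
Scaled RPKM of 12 named ribosomal protein genes in siEsrrb cells (red, left) and siCtrl cells (blue, right), with each library as a point numbered by replicate and the mean as a bar. Rps27 shows the widest gap relative to its level (15.1 and 12.7 against 8.37 and 9.84), and the values of Rpl9, Rpl36a and Rps24 are nearly level between groups.

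The P stalk, which recruits elongation factors to the ribosome, is made of the products of Rplp0, Rplp1 and Rplp2. Rplp0 had 14.7 and 11.8 scaled RPKM in siEsrrb cells, against 10.6 and 10.9 in siCtrl cells, and Rplp1 had 34.8 and 26.7 in siEsrrb cells, against 24.8 and 26.0 in siCtrl cells. Neither overlapped, whereas Rplp2, at 13.9 and 10.3 in siEsrrb cells against 12.02 and 10.1 in siCtrl cells, did. Their median log2 ratio was 0.45 in replicate 1 and 0.04 in replicate 2, and without siEsrrb replicate 1 their median log2 fold change was 0.07, against 0.26 with all libraries. Rpl5 and Rpl11, which with the 5S RNA hold back Mdm2 and so stabilise p53 when ribosome assembly fails, had log2 fold changes of 0.10 and 0.18. Rpl11 had 8.68 and 7.65 scaled RPKM in siEsrrb cells, against 7.35 and 6.89 in siCtrl cells, and neither gene's groups overlapped. For 9 members mutated in human Diamond-Blackfan anaemia the median log2 fold change was 0.16, close to the 0.17 of all members, and without siEsrrb replicate 1 it was 0.07. The 4 X-linked members (Rpl10, Rpl36a, Rpl39 and Rps4x) had a median of 0.11. By replicate it was 0.21 in replicate 1 and −0.003 in replicate 2, where 2 of the 4 were below 0.

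Among the 7 members whose symbol ends in l, paralogs or copies of a canonical gene, 5 passed the minimum level. Rpl3l, a striated-muscle form of Rpl3, had 0.140 and 0.0707 scaled RPKM in siEsrrb cells, against 0.208 and 0.169 in siCtrl cells. Rpl39l, a form known from male germ cells, had 0.156 and 0.183 in siEsrrb cells, against 0.199 and 0.165 in siCtrl cells. Both stayed under the minimum and were not tested. Rpl10l, an intronless copy of Rpl10 that serves mouse male meiosis, had 1.09 and 1.59 in siEsrrb cells, against 0.580 and 1.34 in siCtrl cells, with 23 and 106 reads against 14 and 101, and its groups overlapped. The 5 tested genes had a median log2 fold change of 0.33, from 0.25 (Rpl36al) to 0.38 (Rps27l). That median was 0.54 in replicate 1 and 0.14 in replicate 2, and it was 0.06 without siCtrl replicate 1. Without all genes ending in l the member median was 0.17. At the low end of the canonical genes Rpl29 had 3.15 and 2.64 scaled RPKM in siEsrrb cells, against 3.06 and 2.33 in siCtrl cells, which overlapped.

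Members shared 2 properties that the symbol rule did not use: they were short and strongly transcribed. Their median locus length was 3139 bases, against 18301 for all other genes tested, and their median level was 12.2 scaled RPKM, against 1.601. When all genes tested were ordered by locus length and cut into 4 classes of equal number, the shortest class (up to 6622 bases) held 77 of the 81 members. The median log2 fold change in that class was 0.17 for the 77 members and 0.12 for the 2363 other genes, so other short genes too lay above the median of all genes. By replicate the short members had 0.24 and 0.10, and the other short genes 0.16 and 0.07. The fold change was above 0 for 96.1% of the short members and 70.6% of the other short genes. Both siEsrrb libraries lay above both siCtrl libraries for 63.6% of the short members and 35.0% of the other short genes. In the longer classes the other genes had medians of 0.02, −0.03 and −0.05. In the class with the highest RPKM, of 4 cut the same way, 79 members had a median of 0.17 and the other 2361 genes 0.04. The part of locus length in the members' shift was not tested. Among the 81 members Spearman's rho between locus length and log2 fold change was −0.30, a description across genes that share libraries.

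**Figure D4:**
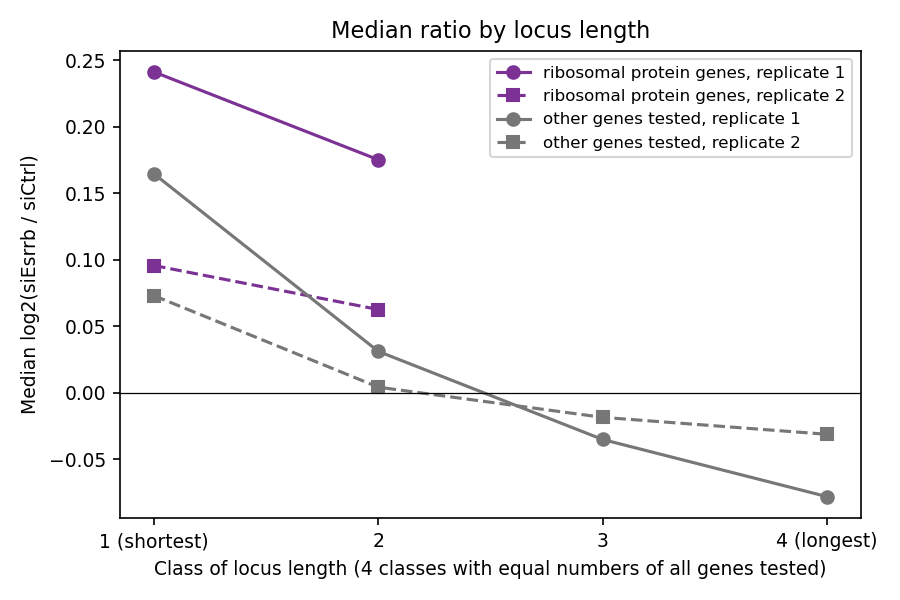
Median log2 ratio of siEsrrb to siCtrl by class of locus length (4 classes of equal number, shortest first) for ribosomal protein genes (purple) and other genes tested (grey), in replicate 1 (circles, solid) and replicate 2 (squares, dashed). Members fall only into the shorter 2 classes (77 and 4 genes) and lie above the other genes there, and the medians of the other genes descend with length, ending at −0.08 in replicate 1 and −0.03 in replicate 2.

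Small RNA genes lie inside 23 members. These had a median log2 fold change of 0.15, against 0.17 for the 58 tested members without one. In Rpl4 the row of Snord16a had 0.584% and 0.562% as many reads as the host in siEsrrb cells, against 0.718% and 0.429% in siCtrl cells. In Rps2, host of Snora64 and Snora78, the small RNA rows had 29.1% and 25.4% as many reads as the host in siEsrrb cells, against 30.6% and 21.0% in siCtrl cells. Whether a read over a snoRNA came from the host's transcript or from the processed small RNA cannot be told from these values.

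Genes that work with the ribosomal proteins were read from lists. Of the translation elongation factors and the translation-associated Tpt1, 7 of 8 had a log2 fold change above 0 (49.6% of all genes). The median was 0.24, with 0 past the adjusted threshold. By replicate the median log2 ratio was 0.34 in replicate 1 and 0.13 in replicate 2, and 5 of the 8 were above 0 in both (37.8% of all genes). Both siEsrrb libraries lay above both siCtrl libraries for 4 of the 8 (21.8% of all genes). Eef2, which moves the ribosome along the mRNA, had 63.4 and 53.5 scaled RPKM in siEsrrb cells, against 47.3 and 48.1 in siCtrl cells, with no overlap. Tpt1 had 22.03 and 19.4 in siEsrrb cells, against 17.1 and 17.4 in siCtrl cells, also with no overlap. Eef1g, a subunit of the exchange factor for eEF1A, had the only log2 fold change below 0, at 18.0 and 17.1 in siEsrrb cells, against 19.0 and 17.9 in siCtrl cells. The 14 other genes with TOP mRNAs, 5 of them on the elongation list too, had a median of 0.15 with 11 above 0. Fau, whose ribosomal protein is made as a fusion with a ubiquitin-like protein, had 11.6 and 10.8 scaled RPKM in siEsrrb cells, against 10.6 and 9.84 in siCtrl cells, with no overlap and a log2 fold change of 0.13.

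Factors that build ribosomes, initiation factors, the mitochondrial ribosome and growth regulators had medians nearer to that of all genes. The median log2 fold change was 0.11 for 15 snoRNP and nucleolar genes, 0.06 for 42 genes of large-subunit assembly, 0.04 for 35 initiation factors, 0.04 for 9 chaperones of ribosomal proteins, 0.03 for 14 genes of RNA polymerase I and 0.02 for 45 genes of small-subunit assembly. For 75 of 78 genes of the mitochondrial ribosome that were tested it was 0.02, and for 18 regulators of ribosomal protein and growth genes it was −0.03. These lists also differed from the members in length and level. Their median locus lengths ran from 7143 bases (mitochondrial ribosome) to 33450.5 (regulators), against 3139 for the members, 4899 for the elongation list and 7905 for the other TOP genes. Their median levels ran from 1.49 (mitochondrial ribosome) to 5.59 scaled RPKM (snoRNP and nucleolar), against 12.2 for the members. All lists had 0 genes past the adjusted threshold. No difference between lists, and no part of length or level in it, was tested. Imp3, a small-subunit processome protein, had 3.03 and 3.00 scaled RPKM in siEsrrb cells, against 2.36 and 2.43 in siCtrl cells. Mycn, a growth-promoting transcription factor, had 6.90 and 5.65 in siEsrrb cells, against 5.53 and 4.61 in siCtrl cells. Gabpa, an ETS factor, had 2.84 and 2.98 in siEsrrb cells, against 3.45 and 3.42 in siCtrl cells, and Eif2s2, a subunit of the factor that brings the initiator tRNA, had 4.39 and 4.21 against 6.31 and 5.44 in siCtrl cells. The groups did not overlap for Imp3, Mycn, Gabpa or Eif2s2, whose adjusted limma p ran from 0.338 to 0.568.

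**Figure D5:**
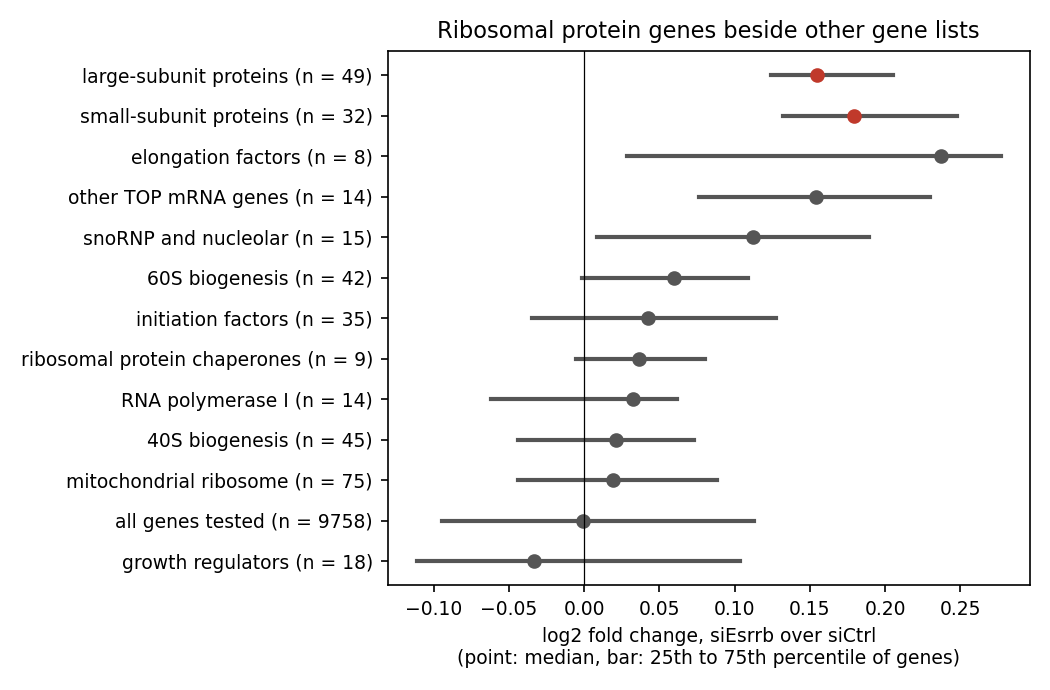
Median (point) and 25th to 75th percentile (bar) of the log2 fold change of siEsrrb over siCtrl for ribosomal protein genes (red) and other lists (grey), with the number of genes tested. The large-subunit (0.16), small-subunit (0.18), elongation factor (0.24) and other TOP mRNA (0.15) medians lie to the right of the assembly factor, mitochondrial ribosome and regulator medians (−0.03 to 0.11). The lists also differ in locus length and level.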

How the data were processed

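The authors deposited RPKM values (reads scaled by locus length and depth) per RefSeq transcript for 4 nascent RNA-seq libraries, and the other 56 samples of the series were not analysed here. Per the submitters' processing notes, CASAVA 1.4 and TopHat2 were used on all 4 libraries, with Bowtie 1.1.1 and Bowtie2 named besides for replicate 1, on build mm9. The counter, its use of strand and its handling of reads that align to several places are stated in no source used here, so antisense and overlapping genes, and members with near-identical pseudogenes, are uncertain. A deposited table of the whole series repeats the replicate 1 values and was used only for this check.

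Symbols came from RefSeq (GRCm38.p6) for 34631 of 34929 transcripts, and promoter sequences from the same build. The transcript with the highest summed RPKM stood for a gene. Of 31771 transcripts above 0, 31761 gave whole reads within 0.01 of a read, at locus lengths that include introns. RPKM were multiplied by median-of-ratios factors (1.09 and 0.948 for siEsrrb, 1.05 and 0.925 for siCtrl, from 8784 genes), a pseudocount of 0.5 was added, and log2 values of genes reaching a mean of 0.5 RPKM were compared with limma 3.58.1 (R 4.3.3, eBayes with trend, 2 groups, no replicate block). Fold changes on this scale understate low genes. The fit was tested on simulated data with independent noise of equal spread for every gene and planted changes larger than the members' median shift. That run therefore does not cover shifts of the members' size, or libraries that vary together. Other pseudocounts, filters and scaling, voom on recovered reads, a replicate block and omission of each library were tried.

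Named members were those under the minimum or ending in l, the 4 highest and 4 lowest tested by level, the 6 with the smallest p in each direction, and 2 per direction from each list. Members, lists and rules were chosen with earlier results of these data known; the P stalk, p53-linked, Diamond-Blackfan and X-linked groupings were made after values were seen.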

Additional observations from a re-analysis of the deposited data

How the results depend on the processing

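The member median stayed above 0 under every alternative run, at 0.16 to 0.17 with other pseudocounts, filters, transcript choice or voom without a block, 0.16 with block and voom together, and 0.13 on the RPKM as deposited, where the median of all genes was −0.03. Leaving out 1 library at a time gave 0.08 to 0.25. The number of genes past the adjusted threshold was 0 except for 2 and 12 in 2 of the omissions (without siCtrl replicate 1 and siEsrrb replicate 2; range 0 to 12) and 2682 with a replicate block and voom on recovered reads. In that last fit 24 members were called, all higher (10 large, 14 small; 12.8% of all genes were called higher and 14.7% lower), led by Rps27 at an adjusted p of 0.000255; the block in limma without voom called 0 genes. Same-numbered libraries are alike in depth and in the tools named for them, and their deviations from the group means correlated at r = 0.39 over all genes and 0.59 over the members, but no label says that a number marks a shared culture, batch or day, and there are 2 pairs. The subunit difference turned to 0.0073 without members holding a small RNA gene. With a library omitted, the log2 fold change changed sign for 9 named genes, running from −0.0741 to 0.0184 for Heatr3, −0.0147 to 0.76 for Rpl10l, −0.0516 to 0.26 for Rpl13a, −0.0726 to 0.26 for Rpl29, −0.0024 to 0.26 for Rpl3, −0.27 to 0.21 for Rpl36a, −0.0896 to 0.0756 for Rps24, −0.0278 to 0.18 for Rsl1d1 and −0.21 to 0.0867 for Tcof1. The cause of these changes was not tested. The median standard error of a member was 0.13 (log2), and with 2 libraries a group even Rps27, at 0.58, had an adjusted p of 0.349, so differences of the size of the member median could not be called gene by gene. Rpl10l rests on 14 to 106 reads.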

Other observations

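Several rows with ribosomal protein names lie outside the symbol rule. Rps3a1, the canonical mouse gene of the small-subunit protein eS1, was left out because its symbol ends in a further digit; it had 9.79 and 9.27 scaled RPKM in siEsrrb cells, against 8.41 and 8.78 in siCtrl cells, with no overlap and a log2 fold change of 0.14. The rows of Rpl14-ps1 and Rplp2-ps1, short retrocopies, were at a higher level per length than their parent genes; these and the copies below were chosen after their values were seen. Rpl14-ps1, listed at 694 bases, had 41.5 and 41.5 scaled RPKM in siEsrrb cells, against 27.5 and 39.3 in siCtrl cells, while its parent Rpl14, at 3137 bases, had 16.1 and 16.5 against 13.3 and 15.4. Rplp2-ps1 had 36.6 and 36.2 in siEsrrb cells, against 28.8 and 34.6 in siCtrl cells, between 2.39 and 3.52 times the level of Rplp2 in the same library. Rps19-ps3 had 6.05 and 5.00 in siEsrrb cells, against 4.18 and 3.99 in siCtrl cells, from 42 to 139 reads, with no overlap. In Rpl31-ps12, Rpl37rt and Rps15a-ps4 the siEsrrb value was above the siCtrl value in replicate 1 and below it in replicate 2. Their log2 ratios in replicate 2 were −0.02, −0.02 and −0.12. Rps15a-ps6 was higher in both, with log2 ratios in replicates 1 and 2 of 0.32 and 0.07. The row of Rpl34-ps1 held nearly the same reads as Rpl34, over a locus of 3493 bases against 3511. Both rows had 555 and 1483 reads in siEsrrb cells, and in siCtrl cells 584 and 1481 stood against 584 and 1482 for Rpl34. Its log2 ratios of 0.12 and 0.16 therefore repeat those of Rpl34 and are not values of a separate copy. How reads shared by a parent and its copy were counted is not given, and its part in these values was not tested. The rows of Rps27rt and of Gm15772 held the same reads as Rps27 and Rpl26 in all 4 libraries.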
